A study of Mus musculus with 8 samples.

Results

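The response to TNF-α in cells that also received trimethylamine N-oxide (TMAO) was followed by bulk mRNA sequencing of Hepa1-6 cells, a hepatoma line of C57BL/6 mouse origin per the labels. Libraries were chosen by title: 2 from cells given both agents and 2 from cells given TMAO alone, 4 of the 8 libraries in the series. The cells with both agents received 50 ng/ml TNF-α and 50 µM TMAO for 24 h, and those with TMAO alone received 50 µM TMAO for 24 h, so TMAO was present in every library compared and TNF-α was what differed. The remaining 4 libraries, from cells given 50 ng/ml TNF-α alone for 24 h and from untreated control cells, enter only where they are named. One treatment label of the combined group gives TMAO as its second agent too, while its titles and protocol give TNF-α. The libraries of each group are numbered 14 and 16. The labels do not say what these numbers mean or that the libraries came from separate cultures, so the p-values reflect no more than how these libraries vary, and that variation may be technical. All results come from 1 cell line.

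TNF-α is an inflammatory cytokine that binds the receptors TNFR1 and TNFR2 on the cell surface. Adaptor and ubiquitin-ligase proteins assembled there activate the IκB kinase (IKK) complex, which frees NF-κB transcription factors from their IκB inhibitors, and NF-κB then switches on chemokines, adhesion molecules, survival genes and its own inhibitors. In hepatocytes TNF-α is known as an inducer of the acute phase response and as a signal that lowers the expression of many liver-specific genes. TMAO is made in the liver by flavin monooxygenases from trimethylamine, which gut bacteria release from choline.

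Total counts ran from 24736746 to 30488605 over the 8 libraries and from 27479922 to 30488605 over the 4 compared here, and between 20815 and 22917 genes had a count in a library. Levels are in CPM (TMM-scaled CPM, which corrects for library size), on which 3 counts in a library, the limit that a count of 0 allows, correspond to 0.0991 to 0.109 CPM; this covers counting error only. Libraries 14 and 16 of the same group lay closest together in the groups compared here: the SD of their log2 difference over 12368 genes was 0.212 with both agents and 0.1802 with TMAO alone, against 0.693 with TNF-α alone and 0.254 in control cells. These were known as the tightest pairs of the series when the comparison was set, so their closeness is not a finding. The p-values from these 4 libraries rest on that small spread. Library TNF-α 16 stands apart from its partner: 32.8% of genes differed by more than 1.5-fold within the TNF-α pair, against 1.803% and 1.84% within the pairs with both agents and with TMAO alone. Among the 4 defining hepatoma markers, albumin and alpha-fetoprotein were abundant, at 372 and 350.3 against 1115 and 1089 CPM and 626 and 601 against 1426 and 1411 CPM (both agents against TMAO alone), whereas transthyretin (Ttr) had at most 1 count and apolipoprotein A1 (Apoa1) at most 8 counts in a library. The markers of other cell types are given with the last gene groups. In bulk RNA, fewer cells of a type and less RNA per cell cannot be told apart.

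Adding TNF-α to TMAO-treated cells changed 4775 of the 14950 genes tested (31.9%; edgeR quasi-likelihood test, Benjamini-Hochberg adjusted p at most 0.05), 2374 of them higher (15.9%) and 2401 lower (16.1%). Most of these changes were small: 3369 of the called genes (70.6%) had an estimate under 1.5-fold and 800 had one of at least 2-fold. A test against a change of 1.5-fold, called the 1.5-fold test from here on, left 689 genes (4.61%), 428 higher (2.86%) and 261 lower (1.75%). The median log2 fold change of all genes tested was 0.00, and the median half-width of the 95% interval was 0.0984 on the log2 scale for the 8952 genes of at least 10 CPM. Both libraries of 1 group lay beyond both of the other in 4773 of the called genes and in 9365 (62.6%) of all tested. Nearly every called gene thus had separate groups, so separation given below for called genes adds little to the call.

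The number called depends on which libraries supply the estimate of spread. When all 8 libraries were fitted together, with the wide TNF-α pair among them, 569 of 15613 genes were called (3.64%), 337 higher (2.16%) and 232 lower (1.49%), and every one of the 569 was also called, in the same direction, from the 4 libraries. The 8-library fit left 208 genes (1.33%) past the 1.5-fold test, 134 higher (0.858%) and 74 lower (0.474%). Of the 689 genes past the 1.5-fold test in the 4 libraries, 456 were called by the 8-library fit. Counts below are those of the 4-library fit, each followed by that of the 8-library fit, and single genes that the 8-library fit did not call are named. Each list count is set against the shares over all genes tested: 15.9% higher and 16.1% lower in the 4-library fit. Past the 1.5-fold test those shares were 2.86% and 1.75%.

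**Figure D1:**
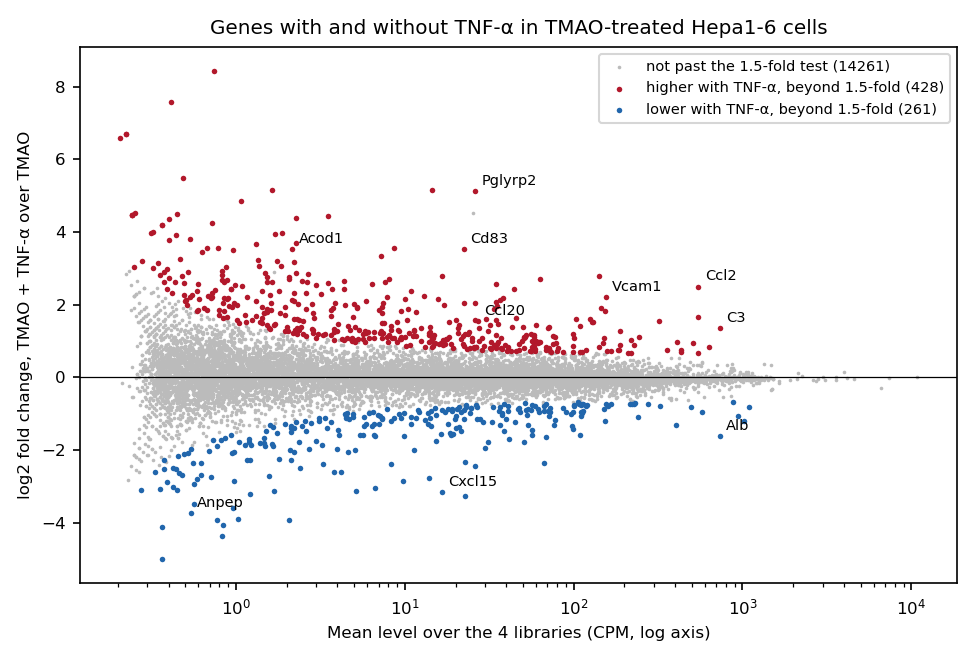
Each point is one of the 14950 genes tested, with its mean level over the 4 libraries (CPM, log axis) on the horizontal axis and its log2 fold change, TMAO with TNF-α over TMAO alone, on the vertical axis. The 428 genes higher beyond 1.5-fold are red and the 261 lower are blue; Ccl2 lies at 2.49 and Cxcl15 at -3.15.

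**Figure D2:**
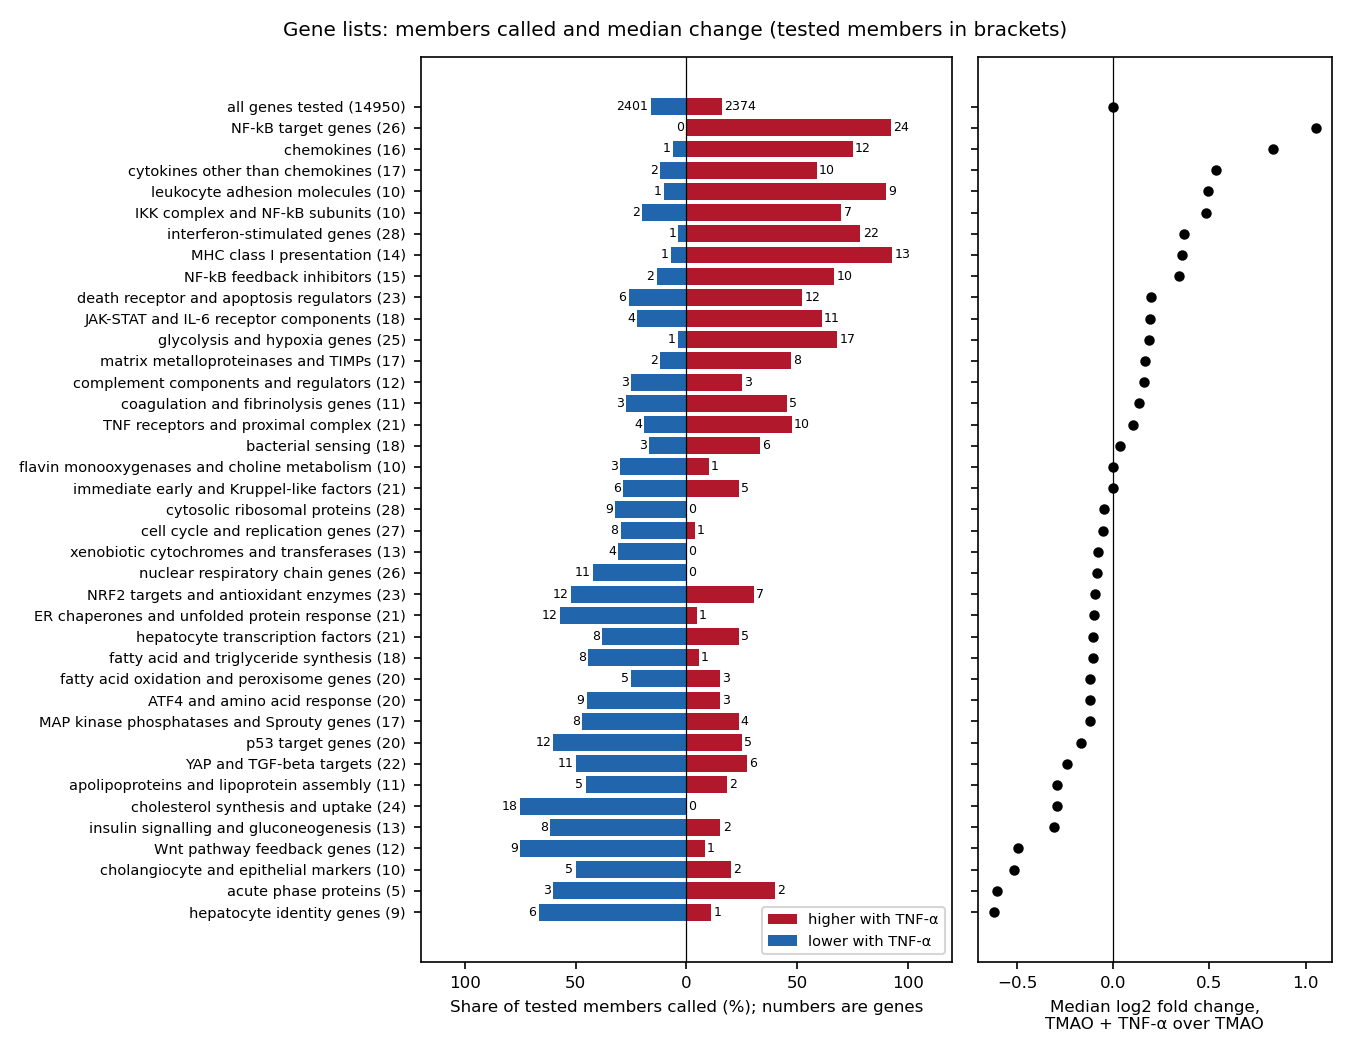
Left, share of the tested members of each gene list that were called higher (red, to the right) or lower (blue, to the left) with both agents than with TMAO alone, with the number of genes beside each bar. Right, median log2 fold change of the list; NF-κB target genes stand at 1.05 and hepatocyte identity genes at -0.62, against 0.00 for all genes tested. Lists with under 5 tested members are not drawn.

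At the receptor, the genes that rose most were those of TRAF1 and the ubiquitin ligases cIAP2 and cIAP1. The gene of the main receptor fell slightly in CPM. Among the TNF receptors and proximal signalling proteins, 10 of the 21 tested members rose and 4 fell, where 15.9% of all genes tested rose and 16.1% fell, with a median log2 fold change of 0.10. The 1.5-fold test left 2 higher and 0 lower, and the 8-library fit called 3 and 0. Tnfrsf1a, which encodes TNFR1, was at 118 and 114 CPM with both agents, against 144 and 142 CPM with TMAO alone, a log2 fold change of -0.30 ± 0.03 (SE, adjusted p = 1.13e-08). Tnfrsf1b, the gene of TNFR2, was at 14.6 and 14.3 CPM with both agents, against 9.898 and 9.78 CPM with TMAO alone (0.56 ± 0.10 SE, adjusted p = 1.97e-05). In CPM the receptor genes thus moved in opposite directions, and in neither did the groups overlap. In the authors' TPM, a level per length, the mean of Tnfrsf1a was 144 with both agents and 141 with TMAO alone. Its fall was not seen there. Traf1, an adaptor that NF-κB itself induces, was at 112 and 108 CPM with both agents, against 17.4 and 16.5 CPM with TMAO alone, with a log2 fold change of 2.70 ± 0.05 (SE, adjusted p = 2.36e-28). Birc3, the gene of cIAP2, had 79.3 and 80.5 CPM with both agents, against 37.2 and 36.9 CPM with TMAO alone (1.11 ± 0.05 SE, adjusted p = 2.68e-19). For Birc2, the gene of cIAP1, the levels were 60.2 and 55.6 CPM with both agents, against 37.6 and 38.5 CPM with TMAO alone (0.61 ± 0.05 SE, adjusted p = 2.58e-11). In all 3 genes both libraries with TNF-α lay above both without it.

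Smaller rises, between 0.18 and 0.34 on the log2 scale, were called for the adaptors Traf2, Traf3 and Traf6, the TAK1-binding protein gene Tab3, the death-domain adaptor Fadd and the caspase-8 inhibitor Cflar. The kinase gene Ripk1 (-0.20 ± 0.04), the initiator caspase gene Casp8 (-0.24 ± 0.03) and Rbck1, a subunit of the linear ubiquitin ligase (-0.16 ± 0.03), fell (log2 fold change ± SE). The other 7 tested members were not called, among them the adaptor Tradd (log2 fold change 0.10) and the kinase Map3k7, which encodes TAK1 (-0.04). Of the 14 called members, the 8-library fit called only Traf1, Birc3 and Birc2. Fadd was also not called without TMAO library 14 or without either library of the combined group.

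Of the IKK complex and the NF-κB subunits, 7 of the 10 tested members rose and 2 fell, with a median log2 fold change of 0.48. Past the 1.5-fold test were 2 of the rises and 0 of the falls, and the 8-library fit called 1 higher and 0 lower. All 5 NF-κB subunit genes rose. Relb, a subunit of the non-canonical pathway, was at 103 and 99.7 CPM with both agents, against 38.9 and 40.4 CPM with TMAO alone, a log2 fold change of 1.35 ± 0.04 (SE, adjusted p = 4.41e-22). Nfkb2, the precursor of its partner p52, was at 430.1 and 461 CPM with both agents, against 307 and 307 CPM with TMAO alone (0.54 ± 0.03 SE, adjusted p = 2.81e-16). Rela, the canonical p65 subunit, was at 135 and 137 CPM with both agents, against 111 and 109 CPM with TMAO alone (0.31 ± 0.03 SE, adjusted p = 1.09e-08), a smaller shift than in Relb. Rel rose by 0.79 ± 0.08 and Nfkb1, which encodes the p50 precursor, by 0.43 ± 0.03 (log2 ± SE). The IκB-like coactivator gene Bcl3 rose by 0.60 ± 0.05. Within the kinase complex the members split: the catalytic subunit gene Ikbkb rose by 0.53 ± 0.04, whereas the partner kinase gene Chuk had a log2 fold change of -0.12 ± 0.04 and the scaffold gene Ikbkg one of -0.25 ± 0.04, both called lower. Map3k14, the kinase of the non-canonical pathway, had a log2 fold change of -0.10 and was not called. The 8-library fit called Relb alone of these members, and Chuk was not called without either TMAO library.

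Most of the inhibitors that NF-κB induces against itself rose. In the list of feedback inhibitors, 10 of the 15 tested members rose and 2 fell, with a median log2 fold change of 0.34. Beyond 1.5-fold lay 6 higher and 0 lower members, and 6 and 0 were called from 8 libraries. Tnfaip3, the gene of the ubiquitin-editing enzyme A20, was at 241 and 237 CPM with both agents, against 67.9 and 66.8 CPM with TMAO alone, a log2 fold change of 1.83 ± 0.03 (SE, adjusted p = 1.40e-28). Nfkbia, which encodes IκBα, was at 187 and 188 CPM with both agents, against 59.98 and 62.7 CPM with TMAO alone (1.61 ± 0.04 SE, adjusted p = 3.64e-26). Nfkbie, the gene of IκBε, was at 68.2 and 71.5 CPM with both agents, against 30.1 and 34.1 CPM with TMAO alone (1.12 ± 0.05 SE, adjusted p = 1.55e-17). The A20-binding protein gene Tnip1 was at 290.0 and 299 CPM with both agents, against 141 and 148 CPM with TMAO alone (1.03 ± 0.03 SE, adjusted p = 6.21e-23). Its relative Tnip3 was low without TNF-α, at 14.4 and 11.9 CPM with both agents, against 1.12 and 1.45 CPM with TMAO alone (3.34 ± 0.16 SE, adjusted p = 1.75e-17). The list also counts Cd83, best known as a surface protein of mature dendritic cells rather than as such an inhibitor. Cd83 had 41.6 and 40.6 CPM with both agents, against 3.36 and 3.73 CPM with TMAO alone (3.53 ± 0.09 SE, adjusted p = 2.32e-24). Neither group reached into the other for any of these 6 genes.

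Nfkbib, the gene of IκBβ, rose by 0.54 ± 0.06 and the deubiquitinase gene Cyld by 0.28 ± 0.04 (log2 ± SE). The genes of the mRNA-decay proteins Zfp36 (0.34 ± 0.09) and Zc3h12a (0.34 ± 0.11) were called with similar rises, the second not without TMAO library 16 or combined library 16. Socs3, an inhibitor of cytokine signalling through JAK kinases, and Otulin, a deubiquitinase of linear chains, were called lower, at -0.30 ± 0.07 and -0.13 ± 0.04. Otulin was not called without either TMAO library or without combined library 16. N4bp1, Tnip2 and Nfkbiz had log2 fold changes of 0.04, 0.04 and 0.03 and were not called. The 8-library fit did not call Nfkbib, Cyld, Zfp36, Zc3h12a, Socs3 and Otulin.

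**Figure D3:**
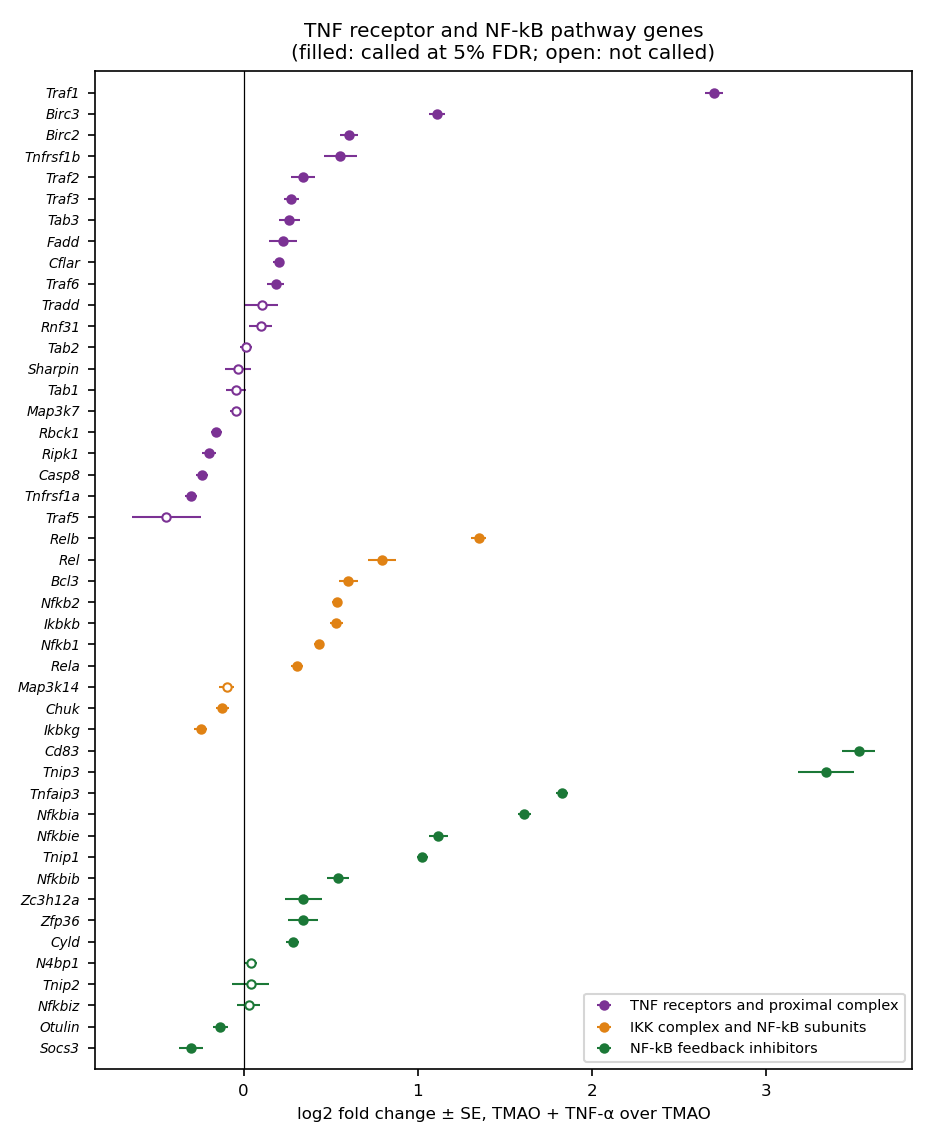
Log2 fold change with its standard error, TMAO with TNF-α over TMAO alone, for the tested members of 3 lists: TNF receptors and proximal complex (purple), IKK complex and NF-κB subunits (orange) and NF-κB feedback inhibitors (green). Filled points are genes called at an adjusted p of 0.05, open points are not called. The list of feedback inhibitors reaches furthest to the right, with the surface protein gene Cd83, which it also holds, at 3.53 and Tnip3 at 3.34.

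Among known NF-κB target genes, 24 of the 26 tested members rose and 0 fell, with a median log2 fold change of 1.05. Of these, 16 higher and 0 lower passed the 1.5-fold test, and 16 higher and 0 lower were called from all 8 libraries. The list has 30 genes, of which 4 had too few counts to be tested. The tested members that were not called were Mmp3 (log2 fold change 0.87) and Cx3cl1 (-0.11). The largest rises belonged to Traf1, to the chemokine gene Ccl2, to Tnfaip2 (log2 fold change 2.38 ± 0.11), to the adhesion molecule gene Vcam1, and to Tnfaip3, Nfkbia, Mmp9 and Ccl20. Ccl20, a chemokine that draws CCR6-bearing lymphocytes and dendritic cells, was at 39.4 and 41.5 CPM with both agents, against 14.6 and 13.3 CPM with TMAO alone (1.54 ± 0.07 SE, adjusted p = 1.39e-17).

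Promoters of these 8 genes, from 250 bases before to 50 after the annotated start (RefSeq, GRCm38.p6), were searched for the NF-κB decamer. The letters searched were GGGNNTTTCC and GGGNNTTCCC with their reverse complements GGAAANNCCC and GGGAANNCCC, so both strands were covered and matches may overlap. Tnfaip3, Nfkbia and Ccl20 held a match and are shown to place it, in capitals, against the start of genes that rose. The Tnfaip3 promoter lies at chr10:19015361-19015660 on the minus strand and its match starts 12 bases before the gene's start. That of Nfkbia lies at chr12:55492598-55492897 on the minus strand, with a match 29 bases before the start, and that of Ccl20 at chr1:83116516-83116815 on the plus strand, with overlapping matches 81 and 80 bases before the start. Sequences run 5′ to 3′ along the gene's strand.
Tnfaip3: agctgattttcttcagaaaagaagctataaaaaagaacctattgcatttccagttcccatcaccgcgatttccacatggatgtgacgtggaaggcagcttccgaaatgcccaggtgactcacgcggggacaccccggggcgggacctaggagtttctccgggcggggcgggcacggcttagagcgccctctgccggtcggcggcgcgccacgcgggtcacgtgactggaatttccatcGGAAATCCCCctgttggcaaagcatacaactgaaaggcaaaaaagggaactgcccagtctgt
Nfkbia: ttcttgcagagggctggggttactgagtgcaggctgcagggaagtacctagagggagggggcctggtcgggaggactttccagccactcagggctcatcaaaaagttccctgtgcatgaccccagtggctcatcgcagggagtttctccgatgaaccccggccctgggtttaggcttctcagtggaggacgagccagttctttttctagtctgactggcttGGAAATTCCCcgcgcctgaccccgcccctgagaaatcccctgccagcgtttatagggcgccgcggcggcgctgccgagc
Ccl20: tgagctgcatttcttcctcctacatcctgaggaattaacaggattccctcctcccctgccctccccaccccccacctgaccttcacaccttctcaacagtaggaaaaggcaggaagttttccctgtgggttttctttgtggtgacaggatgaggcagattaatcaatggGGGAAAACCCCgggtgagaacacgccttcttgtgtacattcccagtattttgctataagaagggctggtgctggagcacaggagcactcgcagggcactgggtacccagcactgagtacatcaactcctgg
The promoters of Traf1 and Tnfaip2 held none of these letters in this window, a second annotated promoter of Tnfaip3 held none, and Ccl2, Vcam1 and Mmp9 were not in the promoter table used here.

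Over all tested genes with a promoter in the table, 467 of 10354 genes (4.51%) held the decamer. The share was 36 of 288 genes (12.5%) among those higher past the 1.5-fold test and 4 of 169 genes (2.37%) among those lower past it. It was 143 of 1733 genes (8.25%) among all genes called higher and 58 of 1809 genes (3.21%) among all called lower, against 266 of 6812 genes (3.905%) among those not called. Of the called NF-κB target genes, a list of known targets, 10 of 18 genes (55.6%) held it. In genes with a single annotated promoter the shares were 10.8% (higher past the 1.5-fold test), 1.56% (lower past it) and 3.64% (all tested). Of the 32851 promoters in the whole table, 3.24% held the letters. A match says only that the letters are there, and these shares were not tested.

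Most tested chemokine genes rose, with 1 large exception. In the list 12 of the 16 tested members rose and 1 fell, with a median log2 fold change of 0.83; 10 of the 26 listed had too few counts to be tested. With the 1.5-fold test 8 stayed higher and 1 lower, and with 8 libraries 8 and 1. Ccl2, which recruits monocytes, was at 904 and 960.3 CPM with both agents, against 167 and 164 CPM with TMAO alone, a log2 fold change of 2.49 ± 0.03 (SE, adjusted p = 5.49e-34), and had the smallest p of all genes tested. Cxcl16, a transmembrane chemokine for CXCR6-bearing T cells, was at 158 and 154 CPM with both agents, against 52.99 and 50.6 CPM with TMAO alone (1.59 ± 0.04 SE, adjusted p = 4.13e-25). Cxcl10, an interferon-inducible attractant of T cells, was at 197 and 196 CPM with both agents, against 102 and 103 CPM with TMAO alone (0.94 ± 0.03 SE, adjusted p = 2.88e-21). Cxcl15, a chemokine best known from mouse lung epithelium, went the other way, at 3.23 and 3.47 CPM with both agents, against 28.5 and 31.1 CPM with TMAO alone (-3.15 ± 0.10 SE, adjusted p = 7.48e-22). In each of these 4 genes the groups stood apart. By the authors' TPM, which is per length and allows levels of different genes to be compared, Ccl2 was the highest chemokine in both groups, with a mean of 2319 TPM with both agents and 408 TPM with TMAO alone; Cxcl10 followed with 408 and 205 TPM.

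Other chemokines are named here after their values were seen. Ccl5, which attracts T cells, had 38.4 and 40.2 CPM with both agents, against 13.4 and 12.8 CPM with TMAO alone (log2 fold change 1.59 ± 0.07), and Ccl9 had 28.1 and 23.7 CPM with both agents, against 6.12 and 5.42 CPM with TMAO alone (2.17 ± 0.10). The neutrophil attractants Cxcl1, Cxcl2, Cxcl3 and Cxcl5 rose by less, between 0.45 and 0.73 on the log2 scale, and the 8-library fit called none of these 4. Cx3cl1, Ccl25 and Ccl27a had log2 fold changes of -0.11, -0.00 and 0.06 and were not called.

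**Figure D4:**
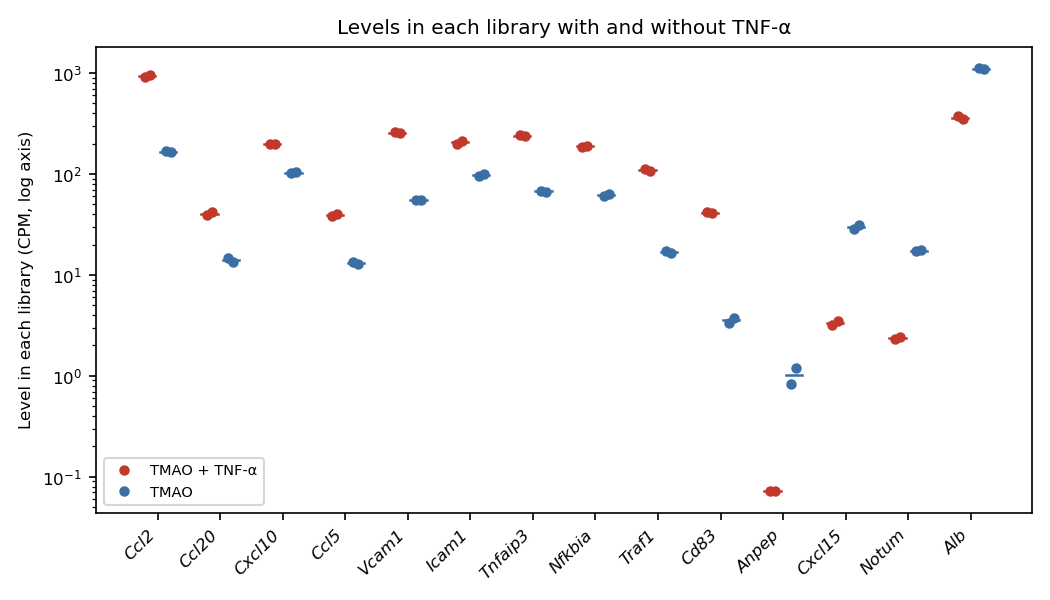
Level of 14 genes in each library (points, CPM on a log axis) and group means (short bars), TMAO with TNF-α in red on the left and TMAO alone in blue on the right of each gene. The groups do not overlap in any gene shown: Ccl2 stands at 904 and 960.3 against 167 and 164 CPM and Alb at 372 and 350.3 against 1115 and 1089 CPM. Ccl5 was added after its value was seen.

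Among cytokines other than chemokines, 10 of the 17 tested members rose and 2 fell, with a median log2 fold change of 0.54. From all 8 libraries 6 were called higher and 1 lower, and 7 and 1 passed the 1.5-fold test. Ltb, a TNF family member that signals as a complex with lymphotoxin α, was at 55.3 and 56.7 CPM with both agents, against 12.8 and 13.6 CPM with TMAO alone, a log2 fold change of 2.08 ± 0.07 (SE, adjusted p = 2.32e-22). Csf1, the growth factor of macrophages, was at 448 and 451 CPM with both agents, against 266 and 269.6 CPM with TMAO alone (0.75 ± 0.03 SE, adjusted p = 3.68e-21). Il1rn, which encodes the IL-1 receptor antagonist, was at 53.6 and 51.4 CPM with both agents, against 19.97 and 17.9 CPM with TMAO alone (1.47 ± 0.06 SE, adjusted p = 1.13e-18). Il23a, the p19 subunit of IL-23, was at 28.9 and 30.5 CPM with both agents, against 11.3 and 12.1 CPM with TMAO alone (1.35 ± 0.08 SE, adjusted p = 4.93e-15). All 4 were higher in both libraries with TNF-α. The called members that fell were the alarmin gene Il33 (-1.11 ± 0.10) and the stress cytokine gene Gdf15 (-0.58 ± 0.09), and Csf2, the GM-CSF gene, rose by 1.61 ± 0.25 (log2 ± SE); these 3 are named after their values were seen, and the 8-library fit did not call Gdf15.

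Molecules to which leukocytes adhere rose in nearly every tested case. Of this list 9 of the 10 tested members rose and 1 fell, with a median log2 fold change of 0.49; 4 of 14 had too few counts. Members past the 1.5-fold test numbered 4 higher and 0 lower, and those called from 8 libraries 5 and 0. Vcam1, the ligand of the integrin VLA-4, was at 259 and 253 CPM with both agents, against 55.6 and 54.8 CPM with TMAO alone, a log2 fold change of 2.21 ± 0.03 (SE, adjusted p = 1.77e-30). Madcam1, known from gut endothelium, was at 72.1 and 77.2 CPM with both agents, against 13.4 and 14.2 CPM with TMAO alone (2.43 ± 0.06 SE, adjusted p = 4.20e-25). Icam1, the ligand of LFA-1, was at 199.8 and 214 CPM with both agents, against 96.4 and 99.1 CPM with TMAO alone (1.08 ± 0.04 SE, adjusted p = 5.83e-22). Pvr, the nectin-like molecule CD155, was at 159 and 154 CPM with both agents, against 105 and 105 CPM with TMAO alone (0.57 ± 0.03 SE, adjusted p = 4.43e-15). For these 4 genes every library with TNF-α was above every library without it. The only member that fell was Alcam, by a log2 fold change of -0.19 ± 0.04, named after its value was seen and not called by the 8-library fit.

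Interferon-stimulated genes rose in number but mostly by less than 1.5-fold: 22 of the 28 tested members rose and 1 fell, with a median log2 fold change of 0.37. Calls from 8 libraries were 4 higher and 0 lower, and those past 1.5-fold 3 and 0. Gbp3, a guanylate-binding protein of cell-autonomous defence, was at 139.6 and 136 CPM with both agents, against 59.9 and 61.6 CPM with TMAO alone, a log2 fold change of 1.18 ± 0.04 (SE, adjusted p = 5.83e-22). Parp14, an ADP-ribosyltransferase, was at 231 and 239 CPM with both agents, against 138 and 139 CPM with TMAO alone (0.76 ± 0.03 SE, adjusted p = 1.14e-19). Oasl2, of the oligoadenylate synthetase family, was at 303 and 298 CPM with both agents, against 216 and 212 CPM with TMAO alone (0.49 ± 0.03 SE, adjusted p = 1.24e-15). Ifitm3, a membrane protein that limits virus entry, was at 993 and 964 CPM with both agents, against 759 and 756 CPM with TMAO alone (0.37 ± 0.02 SE, adjusted p = 7.08e-15). The groups were separate in all 4, but Parp14, Oasl2 and Ifitm3 were not called by the 8-library fit. By symbol, all 9 guanylate-binding protein genes tested rose, 8 of them past the 1.5-fold test, with a median log2 fold change of 1.30; these are near-identical copies that can share reads, so the split between members is uncertain.

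Genes of antigen presentation on MHC class I followed the same pattern. In this list 13 of the 14 tested members rose and 1 fell, with a median log2 fold change of 0.36. The 1.5-fold test left 3 higher and 0 lower, and the 8-library fit called 1 and 0. Tapbp, the gene of tapasin, which loads peptides onto class I molecules, was at 206 and 210.0 CPM with both agents, against 124 and 126 CPM with TMAO alone (0.73 ± 0.03 SE, adjusted p = 7.64e-19). Psmb10, a subunit of the immunoproteasome, was at 56.9 and 57.1 CPM with both agents, against 32.4 and 35.9 CPM with TMAO alone (0.74 ± 0.05 SE, adjusted p = 6.58e-13). B2m, the invariant light chain, was at 906 and 916 CPM with both agents, against 714 and 723 CPM with TMAO alone (0.34 ± 0.02 SE, adjusted p = 3.84e-14). H2-D1, a classical class I heavy chain, was at 940.1 and 967 CPM with both agents, against 797 and 793 CPM with TMAO alone (0.26 ± 0.02 SE, adjusted p = 2.73e-11) and belongs to a family whose members can share reads. These 4 rises were of 0.26 to 0.74 on the log2 scale, and none of the 4 was called by the 8-library fit, in which Tap2 was the 1 member called. Pdia3, an ER chaperone of the loading complex, was the member that fell (-0.11 ± 0.02).

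The 15 largest rises by rule ran from 3.20 to 5.17 on the log2 scale and came mostly from genes that were nearly silent without TNF-α. Among all called genes the log2 fold change reached 8.42, in a gene that the rule left out. Pglyrp2, an amidase that cleaves bacterial peptidoglycan, was at 49.9 and 51.7 CPM with both agents, against 1.29 and 1.59 CPM with TMAO alone, a log2 fold change of 5.13 ± 0.11 (SE, adjusted p = 2.50e-27). Gdnf, a neurotrophic factor, was at 14.97 and 16.9 CPM with both agents, against 1.47 and 1.22 CPM with TMAO alone (3.56 ± 0.15 SE, adjusted p = 2.68e-19). Sorcs1, a sorting receptor of the Vps10p-domain family, was at 6.63 and 6.73 CPM with both agents, against 0.455 and 0.165 CPM with TMAO alone (4.43 ± 0.27 SE, adjusted p = 5.86e-15). Acod1, which makes itaconate and is best known from activated macrophages, was at 3.52 and 4.44 CPM with both agents, against 0.385 and 0.297 CPM with TMAO alone (3.53 ± 0.30 SE, adjusted p = 2.28e-11). Spib, an ETS transcription factor known from B cells, was at 4.204 and 4.26 CPM with both agents, against 0.2098 and 0.4296 CPM with TMAO alone (3.70 ± 0.30 SE, adjusted p = 6.76e-12). Npr3, the clearance receptor of natriuretic peptides, was at 2.501 and 3.903 CPM with both agents, against 0.2798 and 0.132 CPM with TMAO alone (3.94 ± 0.38 SE, adjusted p = 3.68e-10). Both libraries with TNF-α exceeded both without it in each of these genes, which the rule required for choosing them.

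Rinl (1.88 and 1.68 against 0.1399 and 0.165 CPM, both agents against TMAO alone) and Fcho1 (3.298 and 3.01 against 0.2798 and 0.397 CPM), a protein of clathrin-coated pit formation, rose as well, and Cd83 and Tnip3, given with the feedback inhibitors, complete the abundant members. Sprr2e, a small proline-rich protein of cornified epithelium, was at 28.3 and 28.5 CPM with both agents, against 0.979 and 0.628 CPM with TMAO alone (log2 fold change 5.14 ± 0.14). H2-M2, a non-classical class I gene, was at 3.99 and 3.08 CPM with both agents, against 0.2098 and 0.231 CPM with TMAO alone (3.97 ± 0.34); both have near-identical relatives, so their counts are uncertain. The remaining 3 rested on few counts without TNF-α. Extl1 had 77 and 101 counts with both agents, against 4 and 1 with TMAO alone. Mamstr had 22 and 34 counts, against 0 and 4, and the olfactory receptor gene Olfr295, of a large family, had 33 and 36, against 3 and 3. Fold changes of these 3 depend on those few counts.

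The 15 largest falls by rule ran from -4.37 to -2.62 on the log2 scale, and Cxcl15 was one of them. Among all called genes the lowest log2 fold change was -5.00, in a gene outside the rule. Notum, an enzyme that inactivates Wnt ligands, was at 2.32 and 2.43 CPM with both agents, against 17.1 and 17.5 CPM with TMAO alone, a log2 fold change of -2.86 ± 0.12 (SE, adjusted p = 9.33e-19). Abcd2, a peroxisomal transporter of very long-chain fatty acids, was at 1.59 and 1.29 CPM with both agents, against 12.1 and 11.7 CPM with TMAO alone (-3.04 ± 0.15 SE, adjusted p = 5.36e-17). Atoh8, a basic helix-loop-helix transcription factor, was at 3.59 and 3.54 CPM with both agents, against 25.01 and 23.6 CPM with TMAO alone (-2.77 ± 0.11 SE, adjusted p = 3.67e-20). Mal, a membrane protein of apical transport, was at 0.8698 and 1.22 CPM with both agents, against 9.79 and 8.66 CPM with TMAO alone (-3.14 ± 0.18 SE, adjusted p = 1.94e-15). The teneurin gene Tenm4 was at 0.507 and 0.179 CPM with both agents, against 2.76 and 3.305 CPM with TMAO alone (-3.13 ± 0.34 SE, adjusted p = 5.85e-09). Prkar1b, a regulatory subunit of protein kinase A, was at 1.16 and 1.18 CPM with both agents, against 8.11 and 6.35 CPM with TMAO alone (-2.62 ± 0.19 SE, adjusted p = 9.20e-13). In these 6 genes both libraries with TNF-α were below both without it, again a condition of the rule that chose them. H2-Q1, a class I gene with near-identical relatives, was at 3.88 and 4.65 CPM with both agents, against 43.3 and 39.3 CPM with TMAO alone (-3.27 ± 0.10).

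The other falls came from genes with few counts in the cells with both agents. Anpep, the aminopeptidase CD13, had 2 and 2 counts with both agents, against 24 and 36 with TMAO alone. Map1a, a microtubule-associated protein gene, had 6 and 3 counts with both agents, against 35 and 28 with TMAO alone, and Bmpr1b, a receptor of bone morphogenetic proteins, had 1 and 7 counts with both agents, against 27 and 34 with TMAO alone; the 8-library fit did not call Bmpr1b. The hair keratin Krt33b had 1 and 4 counts with both agents, against 46 and 47 with TMAO alone, and the keratin-associated protein Krtap1-5 had 3 and 1 counts with both agents, against 42 and 51 with TMAO alone, both of families with shared reads. Bcas3os2 and Notumos are antisense transcripts, at 0.181 and 0.0716 CPM with both agents, against 1.504 and 2.35 CPM with TMAO alone and at 0.435 and 0.394 CPM with both agents, against 3.46 and 2.02 CPM with TMAO alone; the strand setting of the counting was not given in the sources used here, so their reads cannot be told apart from those of the gene they overlap.

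Genes of the hepatocyte programme that these cells still express were mostly lower. Of the hepatocyte identity genes 1 of the 9 tested members rose and 6 fell, with a median log2 fold change of -0.62; 10 of 19 were not tested. Past the 1.5-fold test were 1 of the rises and 3 of the falls, and the 8-library fit called 0 higher and 3 lower. Alb, the albumin gene, was at 372 and 350.3 CPM with both agents, against 1115 and 1089 CPM with TMAO alone, a log2 fold change of -1.61 ± 0.03 (SE, adjusted p = 4.51e-30). Afp, the fetal counterpart alpha-fetoprotein, was at 626 and 601 CPM with both agents, against 1426 and 1411 CPM with TMAO alone (-1.21 ± 0.02 SE, adjusted p = 2.36e-28). Fgb, the fibrinogen β chain, was at 22.7 and 23.1 CPM with both agents, against 78.5 and 78.7 CPM with TMAO alone (-1.78 ± 0.05 SE, adjusted p = 1.57e-23). Rbp4, the plasma retinol carrier, was at 296 and 295 CPM with both agents, against 457 and 454 CPM with TMAO alone (-0.62 ± 0.03 SE, adjusted p = 3.24e-19). The groups were separate in all 4, and the 8-library fit called all but Rbp4. The 1 member that rose, Serpina1b, had 22 and 24 counts with both agents, against 9 and 3 with TMAO alone, belongs to a family of near-identical copies and was not called by the 8-library fit. The summed level of the list was 1511 to 1557 CPM with both agents and 3334 to 3384 CPM with TMAO alone.

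Hepatocyte transcription factors split. In that list 5 of the 21 tested members rose and 8 fell, with a median log2 fold change of -0.11. Beyond 1.5-fold lay 1 higher and 1 lower member, and 1 and 0 were called from 8 libraries. Hnf4a, a nuclear receptor that maintains the hepatocyte programme, was at 142 and 144 CPM with both agents, against 213 and 209 CPM with TMAO alone (-0.56 ± 0.03 SE, adjusted p = 3.62e-16). Prox1, a homeobox factor of liver development, was at 25.8 and 23.9 CPM with both agents, against 47.3 and 47.6 CPM with TMAO alone (-0.93 ± 0.06 SE, adjusted p = 3.00e-14). Nr5a2, a nuclear receptor of bile acid and cholesterol metabolism, was at 70.2 and 70.8 CPM with both agents, against 31.7 and 33.3 CPM with TMAO alone (1.12 ± 0.05 SE, adjusted p = 1.47e-18), and the cut-homeobox gene Onecut2 at 75.6 and 74.7 CPM with both agents, against 50.99 and 53.9 CPM with TMAO alone (0.52 ± 0.04 SE, adjusted p = 2.62e-11). The first pair were lower and the second pair higher in both libraries with TNF-α, and the 8-library fit called Nr5a2 alone. Cebpa and Foxa1 were not called, with log2 fold changes of -0.11 and -0.11.

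Of 23 acute phase protein genes only 5 had enough counts to be tested, and they moved in both directions: 2 of the 5 tested members rose and 3 fell, with a median log2 fold change of -0.60. Of these, 1 higher and 1 lower passed the 1.5-fold test, and 2 higher and 2 lower were called from all 8 libraries. Besides Fgb, the heme carrier Hpx was at 81.7 and 80.1 CPM with both agents, against 128 and 128 CPM with TMAO alone (-0.66 ± 0.04 SE, adjusted p = 7.16e-16) and Lbp, which binds bacterial lipopolysaccharide, at 16.1 and 17.4 CPM with both agents, against 26.4 and 24.5 CPM with TMAO alone (-0.60 ± 0.08 SE, adjusted p = 2.02e-07), all 3 lower with TNF-α. Cp, the copper carrier ceruloplasmin, was at 36.6 and 39.2 CPM with both agents, against 23.2 and 22.4 CPM with TMAO alone (0.73 ± 0.07 SE, adjusted p = 9.61e-11), and Hp, the haemoglobin scavenger haptoglobin, had 41 and 39 counts with both agents, against 5 and 8 with TMAO alone (log2 fold change 2.68 ± 0.44), and both of these remaining members rose. The 8-library fit did not call Hpx.

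The complement genes moved in both directions. In the complement list 3 of the 12 tested members rose and 3 fell, with a median log2 fold change of 0.16, with 13 of 25 not tested. With the 1.5-fold test 2 stayed higher and 3 lower, and with 8 libraries 2 and 3. C3, the central component, was at 1064 and 1051 CPM with both agents, against 411 and 415 CPM with TMAO alone, a log2 fold change of 1.36 ± 0.02 (SE, adjusted p = 1.85e-29). C1s1, a protease of the classical pathway, was at 229 and 230.1 CPM with both agents, against 136 and 134 CPM with TMAO alone (0.76 ± 0.03 SE, adjusted p = 9.63e-20). Masp1, a protease of the lectin pathway, was at 12.6 and 12.4 CPM with both agents, against 27.8 and 27.2 CPM with TMAO alone (-1.14 ± 0.08 SE, adjusted p = 2.52e-13). Cfi, a regulator that degrades C3b, was at 8.77 and 7.56 CPM with both agents, against 21.1 and 20.2 CPM with TMAO alone (-1.34 ± 0.10 SE, adjusted p = 3.33e-13). C3 and C1s1 were higher in both libraries with TNF-α, and Masp1 and Cfi were lower in both.

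Coagulation and fibrinolysis genes also moved both ways: 5 of the 11 tested members rose and 3 fell, with a median log2 fold change of 0.14. From all 8 libraries 2 were called higher and 3 lower, and 1 and 3 passed the 1.5-fold test. F3, tissue factor, which starts coagulation, was at 59.04 and 66.7 CPM with both agents, against 43.1 and 42.5 CPM with TMAO alone, a log2 fold change of 0.56 ± 0.05 (SE, adjusted p = 2.15e-10). Proc, the anticoagulant protein C, was at 1.09 and 1.11 CPM with both agents, against 4.37 and 4.296 CPM with TMAO alone (-1.98 ± 0.22 SE, adjusted p = 6.13e-09). F3 was higher and Proc was lower in both libraries with TNF-α. Of the apolipoproteins and lipoprotein assembly genes, 2 of the 11 tested members rose and 5 fell, with a median log2 fold change of -0.29. Members past the 1.5-fold test numbered 0 higher and 1 lower, and those called from 8 libraries 0 and 0. Apoe, the ligand of remnant receptors, was at 777 and 796 CPM with both agents, against 1371 and 1420.0 CPM with TMAO alone (-0.83 ± 0.02 SE, adjusted p = 5.01e-24). Apob, the structural protein of VLDL, was at 232 and 232 CPM with both agents, against 297 and 290.4 CPM with TMAO alone (-0.34 ± 0.03 SE, adjusted p = 8.17e-12). Abca1, the cholesterol exporter, was at 74.7 and 78.2 CPM with both agents, against 107 and 109.9 CPM with TMAO alone (-0.51 ± 0.04 SE, adjusted p = 2.30e-12). Angptl4, an inhibitor of lipoprotein lipase, was at 38.1 and 35.3 CPM with both agents, against 23.8 and 24.5 CPM with TMAO alone (0.60 ± 0.07 SE, adjusted p = 6.00e-09), so it rose while the other 3 fell. None of these 4 was called by the 8-library fit.

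Cholesterol genes fell together by small amounts: 0 of the 24 tested members rose and 18 fell, with a median log2 fold change of -0.29. Calls from 8 libraries were 0 higher and 1 lower, and those past 1.5-fold 0 and 0. Sqle, squalene epoxidase, was at 172 and 172 CPM with both agents, against 256 and 262 CPM with TMAO alone, a log2 fold change of -0.59 ± 0.03 (SE, adjusted p = 2.75e-17). It was lower in both libraries with TNF-α and was called by the 8-library fit. The log2 fold changes of the tested members lay between -0.72 and 0.14.

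For fatty acid and triglyceride synthesis, 1 of the 18 tested members rose and 8 fell, with a median log2 fold change of -0.11. The 1.5-fold test left 0 higher and 1 lower, and the 8-library fit called 0 and 0. The stearoyl-CoA desaturase genes led the falls, with Scd1 at 168 and 174 CPM with both agents, against 285 and 283 CPM with TMAO alone (-0.73 ± 0.03 SE, adjusted p = 9.43e-20) and Scd2 at 626 and 629.8 CPM with both agents, against 918 and 911 CPM with TMAO alone (-0.54 ± 0.02 SE, adjusted p = 3.13e-19). Me1, malic enzyme, had a log2 fold change of -0.33 ± 0.03, and Srebf1, the transcription factor of the pathway, one of -0.31 ± 0.04, whereas Fasn (-0.04) and Acly (-0.02) were not called. None of the 4 called genes named was called by the 8-library fit. In the list of fatty acid oxidation and peroxisome genes 3 of the 20 tested members rose and 5 fell, with a median log2 fold change of -0.12. Past the 1.5-fold test were 0 of the rises and 1 of the falls, and the 8-library fit called 0 higher and 1 lower. Apart from Abcd2, the named shifts were small: the carnitine transferase gene Cpt1a had a log2 fold change of -0.23 ± 0.04 and the thiolase gene Acaa2 one of -0.31 ± 0.06. The 8-library fit called Abcd2 of these.

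The genes around TMAO itself moved both ways, with log2 fold changes from -1.01 to 0.42. The share called was 40%, against 31.9% of all genes tested. Of flavin monooxygenases and choline metabolism genes 1 of the 10 tested members rose and 3 fell, with a median log2 fold change of 0.00; 6 of 16 had too few counts. Beyond 1.5-fold lay 0 higher and 0 lower members, and 0 and 0 were called from 8 libraries. Slc44a1, a choline transporter, was at 62.95 and 66.4 CPM with both agents, against 88.3 and 83.1 CPM with TMAO alone (-0.41 ± 0.04 SE, adjusted p = 3.03e-09). Fmo2, a flavin monooxygenase, was at 5.69 and 8.02 CPM with both agents, against 10.6 and 11.01 CPM with TMAO alone (-0.65 ± 0.12 SE, adjusted p = 8.68e-05). Sardh, sarcosine dehydrogenase, was at 0.725 and 0.609 CPM with both agents, against 1.399 and 1.29 CPM with TMAO alone (-1.01 ± 0.35 SE, adjusted p = 0.0283). Chpt1, which makes phosphatidylcholine, was at 15.04 and 12.6 CPM with both agents, against 12.3 and 10.7 CPM with TMAO alone (0.27 ± 0.10 SE, adjusted p = 0.0418). The first 3 were called lower and Chpt1 higher. The 8-library fit called none of them, Sardh was not called without any 1 of the 4 libraries, and Chpt1 was not called without TMAO library 16 or combined library 14.

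Among xenobiotic-metabolising enzymes, 0 of the 13 tested members rose and 4 fell, with a median log2 fold change of -0.08. The share called, 30.8%, was near the 31.9% of all genes tested. Of these, 0 higher and 2 lower passed the 1.5-fold test, and 0 higher and 2 lower were called from all 8 libraries. Cyp1a1, the cytochrome induced by the aryl hydrocarbon receptor, was at 34.1 and 32.9 CPM with both agents, against 104 and 103 CPM with TMAO alone, a log2 fold change of -1.63 ± 0.04 (SE, adjusted p = 4.91e-24). Ugt2b34, a glucuronosyltransferase, was at 55.4 and 55.7 CPM with both agents, against 137 and 142 CPM with TMAO alone (-1.33 ± 0.04 SE, adjusted p = 4.28e-23). Both fell in both libraries. The glutathione transferases Gstm1 (-0.47 ± 0.04) and Gsta4 (-0.48 ± 0.10) fell by less and were not called by the 8-library fit.

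Genes that report Wnt signalling by acting in its feedback mostly fell: 1 of the 12 tested members rose and 9 fell, with a median log2 fold change of -0.50. With the 1.5-fold test 0 stayed higher and 4 lower, and with 8 libraries 0 and 3. Rnf43, a ubiquitin ligase that removes Frizzled receptors, was at 47.4 and 47.3 CPM with both agents, against 106 and 109 CPM with TMAO alone, a log2 fold change of -1.18 ± 0.04 (SE, adjusted p = 3.96e-21). In the authors' TPM its fall was smaller, with means of 24.2 with both agents and 30.4 with TMAO alone. Those of Nkd1 were 69.4 and 149 TPM, and those of Lgr5 30.4 and 60.4 TPM. Nkd1, an inhibitor of Dishevelled, was at 87.02 and 98.6 CPM with both agents, against 211 and 219.6 CPM with TMAO alone (-1.21 ± 0.04 SE, adjusted p = 2.28e-17). Lgr5, the R-spondin receptor, was at 61.5 and 61.3 CPM with both agents, against 117 and 120.3 CPM with TMAO alone (-0.95 ± 0.04 SE, adjusted p = 2.93e-19). With Notum these lay lower in every library with TNF-α; Lgr5 was not called by the 8-library fit. The 1 member that rose was Tcf7, a transcription factor of the pathway (0.19 ± 0.03, named after its value was seen and not called by the 8-library fit).

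In the list of YAP and TGF-β targets 6 of the 22 tested members rose and 11 fell, with a median log2 fold change of -0.24. From all 8 libraries 1 was called higher and 4 lower, and 1 and 7 passed the 1.5-fold test. Ccn2, connective tissue growth factor, was at 22.04 and 21.6 CPM with both agents, against 110.2 and 112 CPM with TMAO alone, a log2 fold change of -2.35 ± 0.05 (SE, adjusted p = 1.46e-27). Thbs1, the matrix protein thrombospondin 1, was at 607 and 602 CPM with both agents, against 1257 and 1284 CPM with TMAO alone (-1.07 ± 0.02 SE, adjusted p = 2.65e-27). Id2, an inhibitor of helix-loop-helix factors, was at 63.9 and 65.4 CPM with both agents, against 128 and 130.0 CPM with TMAO alone (-0.997 ± 0.04 SE, adjusted p = 4.95e-20). These 3 were lower in both libraries with TNF-α. Thbs1 was not called by the 8-library fit.

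Of the immediate early genes and Krüppel-like factors, 5 of the 21 tested members rose and 6 fell, with a median log2 fold change of -0.00. Members past the 1.5-fold test numbered 2 higher and 2 lower, and those called from 8 libraries 1 and 2. Ier3, a survival gene, was at 75.7 and 83.9 CPM with both agents, against 40.6 and 39.7 CPM with TMAO alone (0.99 ± 0.05 SE, adjusted p = 4.11e-17), and the AP-1 subunit genes Fosl2 and Fosl1 were at 137 and 139 CPM with both agents, against 83.8 and 87.2 CPM with TMAO alone (0.69 ± 0.04 SE, adjusted p = 2.18e-16) and at 118 and 126 CPM with both agents, against 78.9 and 82.4 CPM with TMAO alone (0.60 ± 0.04 SE, adjusted p = 7.03e-14). Klf4, a transcription factor of differentiation, was at 23.05 and 26.1 CPM with both agents, against 54.1 and 55.4 CPM with TMAO alone (-1.16 ± 0.06 SE, adjusted p = 1.18e-16). The AP-1 genes and Ier3 were higher and Klf4 was lower, and the 8-library fit did not call Fosl2 and Fosl1. Of the MAP kinase phosphatases and Sprouty genes, which restrain growth factor signalling, 4 of the 17 tested members rose and 8 fell, with a median log2 fold change of -0.12. Calls from 8 libraries were 1 higher and 1 lower, and those past 1.5-fold 1 and 0. Dusp7 rose by 0.81 ± 0.05 and Dusp6, Dusp1 and Dusp4 had log2 fold changes of -0.43 ± 0.03, -0.62 ± 0.06 and -0.36 ± 0.04; Dusp6 and Dusp4 were not called by the 8-library fit.

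Matrix protease genes and their inhibitors rose more often than they fell: 8 of the 17 tested members rose and 2 fell, with a median log2 fold change of 0.17. The 1.5-fold test left 2 higher and 0 lower, and the 8-library fit called 2 and 0. Mmp13, a collagenase, was at 191 and 190.1 CPM with both agents, against 67.6 and 66.03 CPM with TMAO alone, a log2 fold change of 1.51 ± 0.04 (SE, adjusted p = 8.07e-26). Mmp9, a gelatinase, was at 28.6 and 31.9 CPM with both agents, against 9.86 and 10.2 CPM with TMAO alone (1.59 ± 0.09 SE, adjusted p = 2.37e-16). The aggrecanase gene Adamts4 was at 124 and 130.0 CPM with both agents, against 97.3 and 95.4 CPM with TMAO alone (0.40 ± 0.04 SE, adjusted p = 1.32e-10). The inhibitor gene Timp2 was at 204 and 209.5 CPM with both agents, against 241 and 247 CPM with TMAO alone (-0.24 ± 0.03 SE, adjusted p = 5.37e-08). The 3 protease genes were higher and Timp2 lower in both libraries with TNF-α, and the 8-library fit did not call Adamts4 and Timp2.

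Regulators of cell death were affected on both sides. Of the death receptor and apoptosis genes, 12 of the 23 tested members rose and 6 fell, with a median log2 fold change of 0.19. Past the 1.5-fold test were 2 of the rises and 0 of the falls, and the 8-library fit called 2 higher and 0 lower. Fas, a death receptor, was at 45.8 and 41.96 CPM with both agents, against 17.3 and 19.0 CPM with TMAO alone, a log2 fold change of 1.27 ± 0.07 (SE, adjusted p = 4.35e-16). Gsdmd, the pore-former gasdermin D, was at 120.4 and 118 CPM with both agents, against 81.5 and 80.5 CPM with TMAO alone (0.56 ± 0.04 SE, adjusted p = 6.72e-14). Bcl2l11, the pro-apoptotic protein BIM, was at 71.7 and 75.7 CPM with both agents, against 47.7 and 49.05 CPM with TMAO alone (0.61 ± 0.05 SE, adjusted p = 1.08e-12). Bcl2l1, the anti-apoptotic protein BCL-XL, was at 102 and 104 CPM with both agents, against 158 and 157 CPM with TMAO alone (-0.61 ± 0.03 SE, adjusted p = 7.16e-16). The first 3 genes rose and Bcl2l1 fell; Gsdmd, Bcl2l11 and Bcl2l1 were not called by the 8-library fit. The p53 target genes leaned lower, as 5 of the 20 tested members rose and 12 fell, with a median log2 fold change of -0.17. Beyond 1.5-fold lay 1 higher and 0 lower members, and 1 and 0 were called from 8 libraries. Beside Fas, Trp53inp1 rose by 0.53 ± 0.03, whereas Phlda3 and Perp had log2 fold changes of -0.52 ± 0.03 and -0.54 ± 0.04, none of the 3 called by the 8-library fit.

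Cell cycle and replication genes stayed within a narrow range, between -0.14 and 0.10 on the log2 scale. In this list 1 of the 27 tested members rose and 8 fell, with a median log2 fold change of -0.05. The share called, 33.3%, was near the 31.9% of all genes tested. Of these, 0 higher and 0 lower passed the 1.5-fold test, and 0 higher and 0 lower were called from all 8 libraries. Mki67, the proliferation marker Ki-67, was at 1131 and 1107 CPM with both agents, against 1043 and 1043 CPM with TMAO alone (0.10 ± 0.02 SE, adjusted p = 3.09e-04). Pcna, the sliding clamp of replication, was at 252 and 246 CPM with both agents, against 277 and 268 CPM with TMAO alone (-0.13 ± 0.03 SE, adjusted p = 4.12e-04). Aurka and Rrm2 had log2 fold changes of -0.14 ± 0.03 and -0.13 ± 0.03. None of these 4 calls was made by the 8-library fit.

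Glycolysis and hypoxia genes leaned higher: 17 of the 25 tested members rose and 1 fell, with a median log2 fold change of 0.19. With the 1.5-fold test 4 stayed higher and 0 lower, and with 8 libraries 4 and 0. The members past the 1.5-fold test were hypoxia-responsive genes outside glycolysis. Bnip3, a mitophagy receptor, was at 15.9 and 16.1 CPM with both agents, against 6.58 and 6.74 CPM with TMAO alone, a log2 fold change of 1.26 ± 0.10 (SE, adjusted p = 5.00e-12). Egln3, an oxygen-sensing prolyl hydroxylase, was at 37.1 and 40.8 CPM with both agents, against 17.3 and 19.2 CPM with TMAO alone (1.09 ± 0.07 SE, adjusted p = 6.37e-14). Ndrg1 was at 75.4 and 74.9 CPM with both agents, against 38.1 and 37.5 CPM with TMAO alone (0.99 ± 0.05 SE, adjusted p = 6.23e-18). Ddit4, the mTORC1 inhibitor REDD1, was at 91.4 and 89.6 CPM with both agents, against 55.7 and 47.9 CPM with TMAO alone (0.81 ± 0.05 SE, adjusted p = 1.28e-14). The groups did not overlap in these 4. Their level with TMAO alone was below that of control cells. In the 8-library scaling, means with both agents, TMAO alone and control were 15.9, 6.67 and 17.2 CPM for Bnip3. For Egln3 they were 38.6, 18.3 and 33.0 CPM, for Ndrg1 74.5, 37.9 and 60.5 CPM, and for Ddit4 89.7, 51.9 and 71.7 CPM. These rises are thus against a lower level with TMAO, and the difference from control cells was not tested here. Gapdh (-0.00) and Pkm (-0.01) were not called, and Ldha had a log2 fold change of 0.10 ± 0.02, not called by the 8-library fit.

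Stress programmes moved modestly. Of the NRF2 targets and antioxidant enzymes, 7 of the 23 tested members rose and 12 fell, with a median log2 fold change of -0.09. From all 8 libraries 0 were called higher and 1 lower, and 0 and 0 passed the 1.5-fold test. Ephx1, microsomal epoxide hydrolase, was at 107 and 103 CPM with both agents, against 165 and 163 CPM with TMAO alone (-0.64 ± 0.03 SE, adjusted p = 2.81e-16), and the subunits of the glutathione-synthesis enzyme, Gclm and Gclc, had log2 fold changes of -0.47 ± 0.03 and -0.48 ± 0.04. Of these and Gstm1, the 8-library fit called Gclm alone. For ER chaperones and the unfolded protein response, 1 of the 21 tested members rose and 12 fell, with a median log2 fold change of -0.10. Members past the 1.5-fold test numbered 0 higher and 0 lower, and those called from 8 libraries 0 and 0. Calr, calreticulin, rose by 0.17 ± 0.02, and Dnajc3, Hyou1 and Hsp90b1 had log2 fold changes of -0.26 ± 0.04, -0.17 ± 0.03 and -0.15 ± 0.03, all called lower. In the list of ATF4 and amino acid response genes 3 of the 20 tested members rose and 9 fell, with a median log2 fold change of -0.12. Calls from 8 libraries were 0 higher and 0 lower, and those past 1.5-fold 0 and 0. Asns, asparagine synthetase, had a log2 fold change of -0.29 ± 0.03 and Sesn2 one of -0.36 ± 0.06, while the cystine transporter gene Slc7a11 rose by 0.19 ± 0.03 and Nupr1 by 0.66 ± 0.09. None of these ER and ATF4 genes was called by the 8-library fit.

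Insulin signalling genes fell more often than they rose: 2 of the 13 tested members rose and 8 fell, with a median log2 fold change of -0.31. The 1.5-fold test left 1 higher and 3 lower, and the 8-library fit called 0 and 3. Igfbp1, a liver-secreted binding protein of insulin-like growth factors, was at 53.9 and 54.4 CPM with both agents, against 145 and 145 CPM with TMAO alone, a log2 fold change of -1.42 ± 0.04 (SE, adjusted p = 4.59e-24). Irs1 and Irs2, the insulin receptor substrates, were at 70.7 and 79.1 CPM with both agents, against 148 and 150.3 CPM with TMAO alone (-0.99 ± 0.04 SE, adjusted p = 3.23e-19) and at 46.4 and 51.8 CPM with both agents, against 94.3 and 97.4 CPM with TMAO alone (-0.96 ± 0.05 SE, adjusted p = 1.29e-17). Foxo3, a transcription factor that insulin restrains, was at 106 and 109.7 CPM with both agents, against 67.5 and 65.6 CPM with TMAO alone (0.69 ± 0.04 SE, adjusted p = 1.54e-15). The first 3 were lower and Foxo3 higher with TNF-α in both libraries, and the 8-library fit did not call Irs1 and Foxo3.

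Of the JAK-STAT and IL-6 receptor components, 11 of the 18 tested members rose and 4 fell, with a median log2 fold change of 0.19. Past the 1.5-fold test were 1 of the rises and 1 of the falls, and the 8-library fit called 1 higher and 0 lower. The kinase gene Jak2 was at 546 and 536 CPM with both agents, against 322 and 323 CPM with TMAO alone (0.75 ± 0.03 SE, adjusted p = 1.80e-21) and the shared receptor chain Il6st, gp130, at 203 and 206 CPM with both agents, against 156 and 154 CPM with TMAO alone (0.40 ± 0.03 SE, adjusted p = 1.08e-12), both higher. The ligand-binding chains fell, with Lifr at 212 and 201 CPM with both agents, against 344 and 343 CPM with TMAO alone (-0.74 ± 0.03 SE, adjusted p = 8.32e-20) and Il6ra at 32.1 and 30.04 CPM with both agents, against 50.7 and 45.8 CPM with TMAO alone (-0.64 ± 0.06 SE, adjusted p = 2.24e-10). None of these 4 was called by the 8-library fit. Among genes of bacterial sensing, 6 of the 18 tested members rose and 3 fell, with a median log2 fold change of 0.03. Beyond 1.5-fold lay 2 higher and 0 lower members, and 2 and 2 were called from 8 libraries. Beside Pglyrp2, the lipopeptide receptor gene Tlr2 was at 19.4 and 20.2 CPM with both agents, against 8.88 and 9.78 CPM with TMAO alone (1.08 ± 0.09 SE, adjusted p = 2.03e-11), whereas Irak2, a kinase downstream of Toll-like receptors, had a log2 fold change of -0.54 ± 0.05 and Tlr4, the lipopolysaccharide receptor, one of -0.16 ± 0.05, not called by the 8-library fit.

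Housekeeping machinery hardly moved. Of the cytosolic ribosomal protein genes, 0 of the 28 tested members rose and 9 fell, with a median log2 fold change of -0.05. The share called, 32.1%, was near the 31.9% of all genes tested. Of these, 0 higher and 0 lower passed the 1.5-fold test, and 0 higher and 0 lower were called from all 8 libraries. Of the nuclear-encoded respiratory chain genes, 0 of the 26 tested members rose and 11 fell, with a median log2 fold change of -0.09. With the 1.5-fold test 0 stayed higher and 0 lower, and with 8 libraries 0 and 0. The ribosomal members named by rule, Rpl27, Rplp1, Rps16 and Rpl13, had log2 fold changes of -0.13 ± 0.02, -0.12 ± 0.02, -0.10 ± 0.03 and -0.10 ± 0.03, and have processed copies elsewhere in the genome with which reads can be shared. Ndufa4, Atp5c1, Atp5b and Cycs lay between -0.19 and -0.09. None of these 8 was called by the 8-library fit, and Rps16 and Rpl13 were not called without TMAO library 16. The 10 called genes with the highest levels changed by at most 0.30 on the log2 scale. Fn1, the matrix protein fibronectin, was the most abundant, at 5849.5 and 5979.8 CPM with both agents, against 7267 and 7273 CPM with TMAO alone (log2 fold change -0.30 ± 0.02), followed by mt-Nd1, Pabpc1, Hsp90ab1, Actb, Rplp0, Hspa8, mt-Cytb, Flna and Rps2, between -0.10 and 0.14. None of the 10 was called by the 8-library fit, and the log2 fold changes of Actb (-0.08) and Hspa8 (-0.10) were above 0 in the authors' TPM values.

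Markers of other cell types were examined because the rises include immune and adhesion genes. Of the cholangiocyte and epithelial markers, 2 of the 10 tested members rose and 5 fell, with a median log2 fold change of -0.52. From all 8 libraries 0 were called higher and 1 lower, and 0 and 3 passed the 1.5-fold test. The simple keratins Krt18 and Krt8 were at 671 and 681 CPM with both agents, against 1068 and 1083 CPM with TMAO alone (-0.67 ± 0.02 SE, adjusted p = 9.26e-22) and at 364 and 382 CPM with both agents, against 562 and 588 CPM with TMAO alone (-0.63 ± 0.03 SE, adjusted p = 1.54e-18). The secreted phosphoprotein gene Spp1 was at 147 and 140.0 CPM with both agents, against 199 and 204 CPM with TMAO alone (-0.49 ± 0.03 SE, adjusted p = 4.92e-14). Krt7 was at 2.57 and 3.04 CPM with both agents, against 8.11 and 8.79 CPM with TMAO alone (-1.59 ± 0.15 SE, adjusted p = 1.26e-10). All 4 were lower in both libraries with TNF-α, and the 8-library fit called Krt7 alone. The list summed to 1325 to 1346 CPM with both agents and 1970.1 to 2013 CPM with TMAO alone.

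Of 10 macrophage and Kupffer cell markers, 8 were under 1 CPM in each of the 4 libraries, with Marco at 0 counts, and 1 of the 2 tested was called, the receptor gene Csf1r, lower at 3.33 and 2.97 CPM with both agents, against 6.61 and 6.94 CPM with TMAO alone (-1.10 ± 0.15 SE, adjusted p = 3.61e-07). Their summed level was 12.6 to 14.3 CPM with both agents and 14.97 to 16.3 CPM with TMAO alone. Of 10 endothelial markers 9 were under 1 CPM in every library, Lyve1 and Erg at 0 counts, and none of the 3 tested was called: Cdh5 had 10 and 16 counts with both agents, against 3 and 6 with TMAO alone, and Pecam1 had 11 and 9 counts with both agents, against 15 and 25 with TMAO alone. They summed to 2.57 to 2.90 CPM with both agents and 2.21 to 2.62 CPM with TMAO alone. All 10 lymphocyte markers were under 1 CPM, with Cd3e, Nkg7, Ncr1 and Il7r at 0 counts; Trac had 26 and 15 counts with both agents, against 13 and 10 with TMAO alone and Cd79a had 8 and 21 counts with both agents, against 7 and 13 with TMAO alone, neither called, and the list summed to 1.29 to 1.41 CPM with both agents and 0.699 to 0.793 CPM with TMAO alone. Stellate cell and fibroblast markers summed to 1313 to 1344 CPM with both agents and 1666 to 1682 CPM with TMAO alone, nearly all of it Dcn, the proteoglycan decorin, at 1322 and 1289 CPM with both agents, against 1661 and 1643 CPM with TMAO alone (-0.34 ± 0.02 SE, adjusted p = 7.20e-15), which the 8-library fit did not call; 7 of the 10 members were under 1 CPM and Col3a1 was at 0 counts. The part of these marker lists in the gene groups above was not tested.

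Whether TNF-α acted on other genes when TMAO was present was examined against the TNF-α libraries without TMAO and the untreated controls, which share no library with the comparison above. There the 8-library fit called 633 of 15613 genes (4.05%), 372 higher (2.38%) and 261 lower (1.67%). All 689 genes past the 1.5-fold test with TMAO had a fold change in the same direction without it. The 428 higher genes had a median log2 fold change of 1.48 with TMAO and 1.28 without it, and the 261 lower genes medians of -1.29 and -1.28. As a description across these genes, which are not independent and which were chosen for their change with TMAO, Pearson's r was 0.927 and Spearman's rho 0.943. Without library TNF-α 16, 686 of the 689 (99.6%) shared the direction and r was 0.915.

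**Figure D5:**
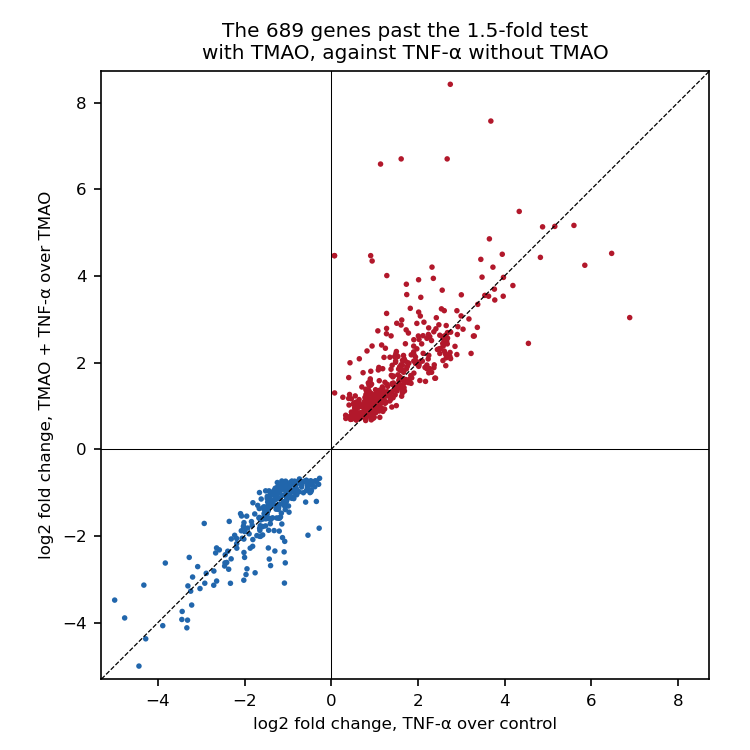
Log2 fold change of the 689 genes past the 1.5-fold test, TMAO with TNF-α over TMAO alone (vertical axis) against TNF-α alone over control (horizontal axis, fit of 8 libraries). Genes higher with TNF-α are red and lower ones blue; the dashed line marks equal change. All points lie in the quadrants of the same sign.

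Over all 12381 tested genes of at least 1 CPM, 64.6% moved in the same direction (r 0.799, rho 0.515), and 77.3% without library TNF-α 16 (r 0.873, rho 0.725). Of the 3369 genes called with a change under 1.5-fold, 74.7% had the same direction without TMAO, and 94.4% when that library was left out. Gene by gene, the log2 fold changes with and without TMAO were 2.49 and 2.66 for Ccl2, 1.83 and 1.63 for Tnfaip3, 2.21 and 2.12 for Vcam1, and 5.13 and 4.88 for Pglyrp2. For Alb they were -1.61 and -1.58, for Ccn2 -2.35 and -2.39, and for Cxcl15 -3.15 and -3.31. The list medians with and without TMAO were 1.05 and 1.12 for NF-κB targets, -0.50 and -0.50 for Wnt feedback genes, and -0.62 and -0.69 for hepatocyte identity genes. For cytosolic ribosomal proteins they were -0.05 and 0.31, but the second rests on library TNF-α 16: without it the median was -0.17. Without that library the median was 1.02 for NF-κB targets, -0.48 for Wnt feedback genes and -0.86 for hepatocyte identity genes.

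The difference between the responses was itself tested as an interaction over all 8 libraries, and no gene was called by edgeR's quasi-likelihood test, with 184 of 15613 genes at an unadjusted p under 0.05 and none called by DESeq2. Among 8952 genes with 10 CPM or more, the 95% interval of that difference reached 0.496 to either side on the log2 scale (median over genes). Estimates larger than that were not called either, those of the genes with the smallest p among them. In 1 set of simulated counts, the interaction test found 0% of 69 genes that differed 1.5-fold and 8.47% of 59 that differed 2-fold. It found 77.8% of 72 that differed 4-fold. Differences of 2-fold or less could thus mostly not have been called. Without library TNF-α 14, which leaves TNF-α 16 alone in its group and assumes that it varies like the other groups, 5788 genes were called. The smallest p belonged to Bnip3, whose log2 fold change was 1.26 with TMAO and 0.42 without it, an interaction of 0.82 ± 0.17 (log2 ± SE, adjusted p = 0.953). Its levels were 15.8 and 15.9 CPM with both agents, 6.59 and 6.76 with TMAO alone, 21.3 and 24.9 with TNF-α alone, and 16.9 and 17.5 in control cells. Both groups with TNF-α were above the group they are set against.

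Ido2, a tryptophan-degrading enzyme, had an interaction of 1.13 ± 0.32 (log2 ± SE, adjusted p = 0.953), with log2 fold changes of 3.17 with TMAO and 2.02 without it. Lingo1, a leucine-rich repeat membrane protein, had one of -0.83 ± 0.23 (log2 ± SE, adjusted p = 0.953), with -0.89 and -0.08. The other 7 genes of smallest p, Nod2, Apol7d, Cmya5, Crnde, Fam229b, Rab4b and Masp2, were under 2 CPM in every library with TMAO, and of them only Nod2, a bacterial sensor, and the transcript Crnde were called with TMAO, at 1.85 ± 0.71 and -1.28 ± 0.36. Neither was called by the 8-library fit, and the call of Nod2 was lost without any 1 of the 4 libraries.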

How the data were processed

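The authors deposited raw counts by versioned Ensembl identifier and library, in a table named for htseq, and a table of TPM per gene symbol, whose program was not given in the sources used here. Only mm9 is named as a build in the submitters' processing notes. Aligner, annotation and strand setting were not given in the sources used here. Identifiers matched GENCODE M21 (54409 of 54446 without version), which gave symbols; no coordinates were taken from it. Groups came from the titles.

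Counts were fitted in edgeR 4.0.16 (R 4.3.3) for the 4 libraries compared: filterByExpr (14950 genes), TMM, glmQLFit (robust, 2 residual degrees of freedom), glmQLFTest, and glmTreat for 1.5-fold, with Benjamini-Hochberg adjustment at 0.05. All 8 libraries (15613 genes) gave the interaction and TNF-α against control. CPM has no pseudocount. Alternatives used DESeq2 1.42.0, limma 3.58.1 (voom, and a trend on log2(TPM + 1) or + 0.1), RLE or total-count scaling, other filters, a replicate block and libraries left out. TPM symbols that occur more than once (95) or had become dates (27) were left out. The scripts were tested on simulated data.

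The 42 gene lists, the libraries compared and the rule for named genes were chosen with earlier results of these data known. The rule took the 15 largest and 15 smallest fold changes among called, separate, named genes of at least 1 CPM, 4 called members of each list by p (2 tested ones where none was called), every called member of the receptor, IKK and inhibitor lists, the 10 highest called genes, and the 10 smallest interaction p. Some genes that the rule took are not reported here. List counts and medians are descriptions.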

Additional observations from a re-analysis of the deposited data

How the results depend on the processing

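The count of 4775 genes changed by TNF-α in TMAO-treated cells was 569 in the fit of all 8 libraries, 2686 with DESeq2, 1491 with limma on the deposited values as log2(TPM + 1), 1438 as log2(TPM + 0.1) and 809 as log2(TPM + 1) with no filter. It lay within 1.5 times with RLE scaling (4772), total counts (4659), no filter on low counts (4673), at least 1 CPM in 2 libraries (4574) and limma-voom (4767), and ran from 3678 to 4370 when 1 library was left out. The 689 genes past 1.5-fold were 208 in the 8-library fit and 578 to 619 with 1 library left out. The 8-library fit takes its spread partly from the TNF-α pair; other causes were not tested. With the replicate number as a block (replicate block), the counts were 4988 and 723 over 4 libraries, and 323 and 110 over all 8. The numbers were not seen to pair the libraries: the correlation of the 14 minus 16 differences over 12368 genes was 0.00122 between the compared groups and -0.636 between TNF-α and control, which enter the 8-library fits. The interaction called 0 genes in each alternative, replicate block included, except without library TNF-α 14 (5788), so its range with 1 library left out is 0 to 5788; TNF-α against control called 633, and 2113 without library TNF-α 16, of which 630 were shared, a setting added after seeing the data. Actb and Hspa8 changed sign on the TPM values, to 0.00136 and 0.0639 with a pseudocount of 1, with or without the filter, and 0.00136 and 0.0639 with 0.1; the cause was not tested. Of 214 named genes, 116 lost their call in the 8-library fit and 134 with the block over 8 libraries. On log2(TPM + 1) 49 of 199 lost it, and 85 of 213 with no filter. With DESeq2 9 of 211 lost it, and 5 to 13 with 1 library left out. Other than Actb and Hspa8 none reversed in these fits, of which those on TPM compare means of log2 values. Depth limits genes under about 10 CPM, and with 2 libraries a group the spread of each gene rests largely on that of the others.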

Other observations

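Of the 689 genes past the 1.5-fold test, 594 were in none of the gene lists, and the 8-library fit called 382 of these. The 10 of them with the smallest p that carry a gene name were chosen after their values were seen. Slc7a2, a transporter of arginine and other cationic amino acids, was at 248 and 243 CPM with both agents, against 36.3 and 35.3 CPM with TMAO alone, a log2 fold change of 2.78 ± 0.04 (SE, adjusted p = 4.90e-32). Enpp2, which encodes autotaxin, the secreted enzyme that makes lysophosphatidic acid, was at 844 and 814 CPM with both agents, against 259.8 and 261 CPM with TMAO alone (1.67 ± 0.03 SE, adjusted p = 1.35e-30). Ikbke, a kinase related to the IKK complex that acts in interferon induction, was at 196 and 191 CPM with both agents, against 67.7 and 66.3 CPM with TMAO alone (1.53 ± 0.04 SE, adjusted p = 7.34e-26). Rgs16, a regulator of G-protein signalling, was at 234 and 225 CPM with both agents, against 60.4 and 61.5 CPM with TMAO alone (1.91 ± 0.04 SE, adjusted p = 1.40e-28). Ppp1r12b, a myosin phosphatase subunit gene, the tetraspanin gene Cd82 and the collagen-receptor integrin gene Itga2 rose as well, by 1.55 ± 0.03, 1.28 ± 0.03 and 1.10 ± 0.03 on the log2 scale (± SE). Of these 7 genes, in each of which the groups did not overlap, Itga2 was the only one that the 8-library fit did not call.

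The other 3 of the 10 genes fell. Itih2, an inter-alpha-trypsin inhibitor heavy chain of plasma, was at 231 and 232 CPM with both agents, against 570.3 and 574 CPM with TMAO alone (-1.30 ± 0.03 SE, adjusted p = 9.49e-28). Cyp2s1, a cytochrome P450, was at 52.8 and 56.6 CPM with both agents, against 163 and 166 CPM with TMAO alone (-1.59 ± 0.04 SE, adjusted p = 4.20e-25), and Aldh1a1, which makes retinoic acid, was at 394 and 389 CPM with both agents, against 750.5 and 769 CPM with TMAO alone (-0.96 ± 0.02 SE, adjusted p = 7.98e-25). All 3 were also called lower by the 8-library fit. By annotated class, 103 of 577 lincRNA genes rose and 36 fell, against 2103 and 2282 of 12249 protein-coding genes. The share called in either direction was thus lower among lincRNA genes, at 24.1%, than among protein-coding genes, at 35.8%. Over all genes tested 15.9% rose and 16.1% fell. Of 11 keratin genes 7 fell and 1 rose, and of 13 semaphorin genes 7 rose and 1 fell. These families were grouped by symbol and can hold members that share reads.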
